A study of Mus musculus with 18 samples.

Results

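Whole testes of mouse pups that lack Zfp541 were compared with testes of heterozygous pups at postnatal day 18, in 6 of the 18 libraries of the series. The 6 libraries were chosen by their labels: 3 from Zfp541-/- males (KO) and 3 from Zfp541+/- males (Het), all C57BL/6J, all P18 and all made from testicular cells. Het pups carry 1 null allele, and no wild-type library was used, so every difference below sets loss of both copies against loss of 1. The labels do not say whether the 3 replicates of a group are separate animals, so the p-values measure only the spread between these samples, which may be technical. Spermatocytes isolated at P18 and whole testes at P14, each with 3 KO and 3 Het libraries, are used below only to set the P18 testis differences beside them. Poly(A) RNA was sequenced, and levels are FPKM (reads corrected for gene length and library size), rescaled between libraries so that most genes are level. A gene is said to have risen or fallen in KO where limma's test on log2(FPKM + 0.5) passed an adjusted p of 0.05 over all genes tested.

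In the first wave of spermatogenesis, spermatogonia enter meiosis together, and at about this age the most advanced spermatocytes are in pachytene, when homologous chromosomes are fully paired. Pachytene cells switch on a large set of genes for the flagellum, the acrosome and sperm metabolism well before spermatids exist, and they silence the X and Y chromosomes. ZFP541 is a zinc-finger protein that binds histone deacetylases and KCTD19 in spermatocytes. A whole testis at this age also holds Sertoli cells, Leydig cells, peritubular myoid cells, vessels and macrophages, so a germ-cell loss raises the share of every other cell in the RNA. In bulk samples fewer cells of a type and less RNA per cell cannot be told apart, and neither can a larger share of a cell type and more RNA per cell.

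The 6 libraries held 12.81M to 16.95M reads, as read back from the deposited values, and 18103 to 18584 genes reached an FPKM of 1 in each. Markers of the labelled tissue were present. Sertoli markers Sox9, Amh, Wt1 and Clu lay between 18.6 and 634.8 FPKM in all 6 libraries, and meiotic markers Sycp1 and Sycp3 between 141.1 and 322.0 FPKM. Spermatid markers Prm1, Tnp1 and Acrv1 were at 1.69 FPKM or less, and the epididymal markers Lcn5, Defb20 and Spint4 at 0.506 FPKM or less. Correlations of log2 values were 0.983 to 0.986 between KO pairs and 0.975 to 0.983 between Het pairs. Of the 3569 genes that fell in KO (19.0% of 18796 tested), Het replicate 1 was the highest Het library for 3269 and Het replicate 3 the lowest for 3040. Over genes that fell by at least 1 log2, the median ratio to the KO mean was 4.93 for Het replicate 1, 3.44 for Het replicate 2 and 2.6 for Het replicate 3. The size of a fall thus depended on which Het library it was read against, and Het replicate 3 lay nearest to KO.

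Zfp541 itself was read at 11.02, 9.05 and 10.4 FPKM in KO testes, against 30.1, 24.3 and 21.8 FPKM in Het testes. The groups did not overlap, and the gene fell by 1.27 on the log2 scale (SE 0.133, adjusted p = 0.00356). The value covers all exons and the deleted part is not given in the sources used here, so the remaining reads say nothing about the protein. Kctd19, which encodes a partner of ZFP541, had 22.9, 23.5 and 22.1 FPKM in KO testes, against 85.5, 67.0 and 57.4 FPKM in Het testes. It fell by 1.58 on the log2 scale (SE 0.142, adjusted p = 0.00322). Of the 6 partner genes, Kctd19 and the deacetylase gene Hdac1 fell and Trerf1 rose. Without Het replicate 2 or any 1 KO library 1 of the 6 fell, and none rose on the Sertoli scale, without Het replicate 2 or 3, or without KO replicate 2 or 3. Hdac1 averaged 36.1 ± 0.90 FPKM in KO and 45.4 ± 3.29 FPKM in Het testes (SD, n = 3 each), and Trerf1 averaged 4.75 FPKM in KO and 3.53 FPKM in Het testes.

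Most of what changed in whole testis fell. Of 18796 genes tested, 3569 (19.0%) fell and 615 (3.27%) rose in KO. By at least 1 log2, 1512 (8.04%) fell and 28 (0.149%) rose, and 239 genes fell by at least 3 log2. The filter bears on these counts: 617 genes were under 1 FPKM in every KO library and were tested only through Het. Only 69 were under 1 FPKM in every Het library. Of the other 18110 genes, 3023 fell and 597 rose. The median log2 difference was -0.83 among the genes that fell, 0.35 among those that rose and about 0 (-0.002) over all genes tested. The split depended on the scaling: with the values as deposited 2473 genes rose and 2860 fell (46.4% of calls higher), which moved the median of all genes to 0.12. By the median of ratios 1216 rose and 3172 fell (27.7% higher), and with limma voom on the reads read back 1925 rose and 3377 fell (36.3% higher), against 14.7% higher as reported. When libraries were set level on the Sertoli list, 56 rose and 5718 fell (1.0% higher), with the median of all genes at -0.23. With 1 library left out, the count of fallers ran from 1405 (without Het replicate 2) to 3204 (without Het replicate 3), and that of risers from 80 (without KO replicate 2) to 1035 (without Het replicate 3). The shifts of the whole scale were nearer in size to the median rise than to the median fall.

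Nearly all tested genes of the flagellar axoneme fell. Of 36 listed axonemal dynein and dynein assembly genes, which build the motors that bend the sperm tail, 32 were tested and 31 fell, with a median of -2.07 log2. Of 41 listed genes of the central pair, radial spokes, CFAP proteins and tektins, which make the rest of the axoneme, 36 were tested and 35 fell, with a median of -2.25 log2. The filter bears on these counts: 5 of the dynein genes and 13 of the others were under 1 FPKM in every KO library and were tested only through Het. Without them, 26 of 27 and 22 of 23 genes fell, with medians of -1.93 and -1.80 log2. With 1 library left out the count of dynein genes ran from 19 (without Het replicate 2) to 27, and that of the other axoneme genes from 19 (without Het replicate 2) to 31. A gene read only in Het is no longer tested once a Het library is left out.

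Wdr63, a dynein intermediate chain gene on chromosome 3, had 0.662, 0.497 and 0.588 FPKM in KO testes, against 22.8, 13.1 and 8.24 FPKM in Het testes. It had the deepest fall of the dynein list (-3.70 log2, SE 0.341, adjusted p = 0.00322), and the lowest Het library was far above all KO libraries. Drc1, which encodes a part of the nexin-dynein regulatory complex, averaged 1.03 ± 0.225 FPKM in KO and 14.2 ± 5.95 FPKM in Het testes (SD, n = 3 each; -3.18 log2). Rsph1, a radial spoke head gene with high expression, had 104.6, 112.4 and 103.8 FPKM in KO testes, against 538.9, 384.6 and 312.4 FPKM in Het testes. Its KO level stayed well above that of most axoneme genes in Het. Rsph6a, another spoke head gene, averaged 0.218 FPKM in KO and 14.5 FPKM in Het testes, and Tekt3, a tektin of the doublet microtubules, was listed at 0 in KO replicates 2 and 3 and at 0.0809 FPKM in KO replicate 1, against 5.66 to 15.9 FPKM in Het testes. Tekt3 and Rsph6a were close to the value of 1 read on 1 kb (0.059 to 0.0781 FPKM) or a few reads in KO, so their log2 differences depend on the added 0.5.

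Intraflagellar transport carries cargo along the growing tail and also serves the short cilia of other cells, and its genes had a median nearer to 0. Of 37 listed IFT and BBSome genes 37 were tested and 32 fell, with a median of -0.72 log2 and none under 1 FPKM in every KO library. Ift172 averaged 12.0 ± 0.776 FPKM in KO and 35.0 ± 10.4 FPKM in Het testes (SD, n = 3 each; -1.47 log2, adjusted p = 0.00609). Without KO replicate 2, 16 of the list fell. Among genes of the fibrous sheath, the outer dense fibres and sperm kinases, 28 were listed, 15 tested and 11 fell. Qrich2, needed for the sperm flagellum, had 0.226, 0.219 and 0.259 FPKM in KO testes, against 52.6, 30.8 and 18.2 FPKM in Het testes (-5.42 log2, SE 0.355, adjusted p = 0.00313). Ccdc42, a gene of the manchette and tail coupling apparatus, averaged 0.302 FPKM in KO and 12.4 FPKM in Het testes.

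The acrosome is the enzyme-filled cap of the sperm head, and some of its genes are transcribed long before the cap is built. Of 36 listed genes 17 reached 1 FPKM in 3 libraries and were tested, and 15 fell (10 without Het replicate 1 or 2), with a median of -2.71 log2 that was -1.56 without Het replicate 1. Of the 17, 4 passed the filter through Het alone, and 11 of the other 13 fell (median -1.83 log2). Spata16, whose human counterpart is mutated in round-headed sperm, had 0.602, 0.537 and 0.461 FPKM in KO testes, against 46.0, 33.2 and 17.3 FPKM in Het testes (-4.88 log2, SE 0.336, adjusted p = 0.00313). Crisp2, a cysteine-rich protein of the acrosome and tail, averaged 3.26 FPKM in KO and 77.1 FPKM in Het testes. The testis ADAMs are surface proteins that sperm need to pass into the oviduct, and they were listed together with their chaperones. The genes of this joint list moved unequally: 24 were listed, 12 tested and 8 fell (4 without any 1 Het library), while 3 of the 12 lay above 0. Of the 12, 4 were under 1 FPKM in every KO library, and 4 of the other 8 fell. The median of -2.45 log2 was -1.08 without those 4, and -0.95, -1.07 and -1.20 without Het replicate 1, 2 and 3 in turn. Adam3 had 0.480, 0.675 and 0.535 FPKM in KO testes, against 64.1, 38.2 and 21.1 FPKM in Het testes (-5.16 log2). Adam32 averaged 2.06 FPKM in KO and 41.6 FPKM in Het testes.

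Of 27 listed genes of sperm channels and motility signalling, 17 were tested, 16 fell and 1 rose, with a median of -1.74 log2, and 5 of the 17 were under 1 FPKM in every KO library. Of the other 12, 11 fell, with a median of -1.37 log2. Without Het replicate 2, 5 of the list fell, and without Het replicate 1 the median was -1.08 log2. Ppp3r2, the calcineurin subunit of sperm, had 0.747, 0.506 and 0.421 FPKM in KO testes, against 45.3, 25.2 and 15.5 FPKM in Het testes (-4.66 log2, adjusted p = 0.00313). Slc9c1, the sperm sodium-proton exchanger gene, averaged 0.0484 FPKM in KO and 10.1 FPKM in Het testes. The riser was Efcab9, which encodes a calcium sensor of the CatSper channel, with a mean of 2.32 FPKM in KO and 1.33 FPKM in Het testes. It no longer passed when any 1 library was left out (0 of 17 higher), and the same held on the Sertoli scale.

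Sperm metabolism rests on testis-specific isozymes, and these fell while most of their widely expressed counterparts did not. Of 20 listed testis isozyme genes 17 were tested and 14 fell, with a median of -1.61 log2. Ldhc, the testis lactate dehydrogenase, had 49.3, 48.2 and 46.6 FPKM in KO testes, against 658.6, 414.8 and 260.1 FPKM in Het testes. This was the largest loss of level of any protein-coding gene that fell without overlap (-3.10 log2, SE 0.312, adjusted p = 0.00339), and the Het libraries were spread more widely than the KO libraries. Pgk2, a phosphoglycerate kinase gene copied from the X chromosome, had 0.217, 0.0698 and 0.0461 FPKM in KO testes, against 24.9, 14.8 and 7.199 FPKM in Het testes (-4.57 log2). Of 24 widely expressed energy genes that were tested, 5 rose and 3 fell, with a median of 0.27 log2 that was 0.04 on the Sertoli scale. The fallers were Ldha, Pfkm and the mitochondrial porin gene Vdac2, the last named after its values were seen. Ldha had 15.5, 16.2 and 16.5 FPKM in KO testes, against 117.2, 80.3 and 47.8 FPKM in Het testes (-2.22 log2). Ldha shared 9.0% of its 50-base words with other genes and no exon with any. Gpi1 and Pfkl, both of glycolysis, rose by 0.33 and 0.34 log2, and none of the 24 rose on the Sertoli scale or without Het replicate 2, KO replicate 2 or 3.

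The retrogenes listed here are autosomal copies of X-linked genes that can stand in while the X is silent. Of 13 listed 11 were tested and 9 fell, with a median of -1.20 log2. Without the 2 genes tested through Het alone 7 of 9 fell, with a median of -0.78 log2, and without any 1 Het library the median was -0.75 to -0.78 log2. Cetn1, a centrin retrogene, had 1.38, 1.598 and 1.35 FPKM in KO testes, against 81.2, 52.4 and 29.9 FPKM in Het testes (-4.71 log2), and Gykl1, a glycerol kinase retrogene, averaged 0.0841 FPKM in KO and 19.6 FPKM in Het testes. Among the energy, retrogene and tail sheath lists, 2 genes each were tested through Het alone.

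**Figure D1:**
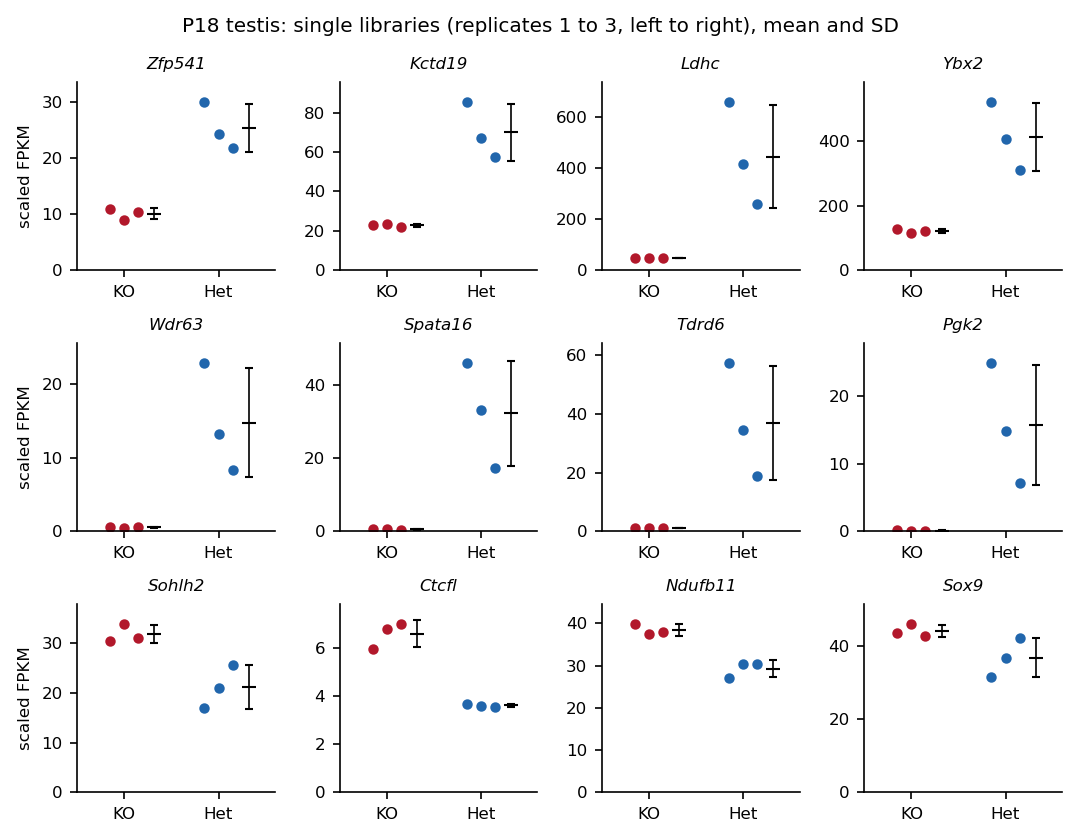
Points are the scaled FPKM of the 3 KO (red, left) and 3 Het libraries (blue, right) of P18 testis, and black marks are means with SD. The first 8 genes, Zfp541 to Pgk2, are below every Het library in KO with tight KO values, while Sohlh2, Ctcfl, Ndufb11 and Sox9 lie somewhat higher in KO.

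By absolute level, losses were led by Ldhc and were spread over several functions. Hsp90aa1, the inducible cytosolic HSP90 chaperone gene, had 384.1, 364.1 and 337.9 FPKM in KO testes, against 712.9, 585.8 and 564.2 FPKM in Het testes (-0.77 log2, SE 0.103, adjusted p = 0.00521). Of its 50-base words 47.5% occur in other genes, most of them in Gm12346. Calm2, one of the calmodulin genes, averaged 289.2 FPKM in KO and 487.3 FPKM in Het testes, and Fabp9, a fatty-acid-binding protein gene of the sperm head perforatorium, averaged 55.0 FPKM in KO and 257.9 FPKM in Het testes. Fabp9 shares 53% of its exon bases with Gm37389 and is uncertain. Tuba3a and Tuba3b, testis alpha-tubulins, averaged 185.6 and 151.1 FPKM in KO testes, against 460.7 and 427.7 FPKM in Het testes, and share sequence with each other. Unlike the deepest falls by fold, these 5 genes stayed at 48.9 FPKM or more in every KO library.

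The deepest falls by fold among genes of at least 5 FPKM were 1700123L14Rik, Qrich2, Hspb9, Prdx6b, Adam3 and 1700029F12Rik. 1700123L14Rik had 0.890, 0.357 and 0.214 FPKM in KO testes, against 79.7, 44.9 and 25.6 FPKM in Het testes (-5.59 log2, SE 0.443, adjusted p = 0.00313). 1700029F12Rik had 1.05, 0.647 and 0.788 FPKM in KO testes, against 77.1, 46.1 and 26.5 FPKM in Het testes (-5.13 log2). Prdx6b, a relative of the peroxiredoxin gene Prdx6 with 0.2% of its words shared with it, averaged 0.0925 FPKM in KO and 24.0 FPKM in Het testes. For all 6 genes Het replicate 1 was highest and Het replicate 3 lowest, and every KO library was far below both. Of these, 1700123L14Rik, Qrich2, Prdx6b and Adam3 were under 1 FPKM in every KO library and were tested only through Het.

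The piRNA pathway makes the small RNAs that guide PIWI proteins, in great amounts from pachytene on, and of 25 listed genes 24 were tested, 19 fell and none rose (median -0.72 log2). Tdrd6, a scaffold of the chromatoid body, had 1.23, 1.124 and 1.27 FPKM in KO testes, against 57.4, 34.6 and 18.9 FPKM in Het testes (-4.32 log2, SE 0.370, adjusted p = 0.00313). Piwil1, the pachytene PIWI protein gene, averaged 16.4 ± 1.29 FPKM in KO and 106.5 ± 38.3 FPKM in Het testes (SD, n = 3 each; -2.61 log2). Without KO replicate 2, 12 of the list fell. Among germ-cell translation and poly(A) factors 24 were tested, 14 fell (9 without any 1 KO library) and 1 rose. Pabpc2, a testis poly(A)-binding protein gene, had 1.61, 1.16 and 1.04 FPKM in KO testes, against 92.1, 52.6 and 28.7 FPKM in Het testes (-4.90 log2), and Pabpc6, its relative, averaged 2.98 FPKM in KO and 49.6 FPKM in Het testes. Ybx2, an abundant mRNA-packaging protein of germ cells, had 127.1, 115.6 and 121.2 FPKM in KO testes, against 520.5, 406.1 and 309.6 FPKM in Het testes (-1.73 log2, SE 0.181, adjusted p = 0.00359). The riser was Cpeb1, a cytoplasmic polyadenylation factor needed in early meiosis, with a mean of 18.7 FPKM in KO and 14.9 FPKM in Het testes.

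Of 27 listed transcription factors of pachytene and spermiogenesis 23 were tested, 13 fell (8 without Het replicate 2) and 3 rose, with a median of -0.66 log2. Of the 23, 1 was under 1 FPKM in every KO library. Ovol2, a zinc-finger factor, had 0.268, 0.215 and 0.142 FPKM in KO testes, against 12.1, 7.54 and 4.65 FPKM in Het testes (-3.51 log2). Gtf2a1l, the germ-cell form of TFIIA, averaged 1.35 FPKM in KO and 20.7 FPKM in Het testes (-3.44 log2). Taf7l, an X-linked TFIID subunit gene, and Rfx1 were among the 3 that rose, by 0.29 and 0.34 log2, and none of the 3 rose on the Sertoli scale. Of 33 listed testis histone, transition protein and remodelling genes 25 were tested, 2 of them through Het alone, and 12 fell (5 without Het replicate 2). Phf7, a histone reader of late germ cells, averaged 20.5 ± 0.394 FPKM in KO and 101.9 ± 40.8 FPKM in Het testes (SD, n = 3 each; -2.21 log2). Of 26 tested chaperone and heat-shock genes 10 fell and none rose. Cct6b, a testis chaperonin subunit gene, averaged 3.45 FPKM in KO and 31.9 FPKM in Het testes. The deepest was Hspb9, a small heat-shock protein of testis, with 1.07, 1.25 and 0.619 FPKM in KO testes, against 99.5, 56.1 and 38.5 FPKM in Het testes (-5.38 log2).

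Genes of meiosis itself moved less, and by function in unequal measure. Of 22 chromosome axis, cohesin and synaptonemal complex genes 10 fell and none rose, with a median of -0.26 log2, and with the values as deposited 6 fell. Syce1, a central element of the complex, had 44.9, 42.4 and 37.2 FPKM in KO testes, against 110.9, 85.2 and 66.4 FPKM in Het testes (-1.04 log2, adjusted p = 0.0124). Spdya, which tethers telomeres to the nuclear envelope with CDK2, averaged 21.4 FPKM in KO and 40.2 FPKM in Het testes. Sycp3, the axis protein gene, had 262.8, 242.9 and 229.6 FPKM in KO testes, against 304.7, 279.6 and 322.0 FPKM in Het testes (-0.30 log2, adjusted p = 0.0393). No Het library was below any KO library for Syce1 or Sycp3. The count was 2 of 22 when Het replicate 2 was dropped, and likewise for KO replicate 2 and for KO replicate 3. Of 37 break formation and recombination genes 8 fell and 5 rose (3 and 1 without KO replicate 2 or 3), a share of fallers near the 19.0% of all genes tested. Their median of -0.06 log2 was 0.07 with the values as deposited and 0.02 without Het replicate 1. Psmc3ip, which aids strand exchange and is also called Hop2, averaged 15.5 ± 1.42 FPKM in KO and 33.4 ± 5.28 FPKM in Het testes (SD, n = 3 each; -1.07 log2). Prr19, a partner of the crossover factor CNTD1, averaged 10.4 FPKM in KO and 22.1 FPKM in Het testes. Zcwpw1, a reader of the histone marks that PRDM9 lays down at recombination sites, had 34.2, 34.7 and 34.2 FPKM in KO testes, against 21.9, 24.1 and 26.4 FPKM in Het testes (0.51 log2, SE 0.076, adjusted p = 0.00694).

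In the list of genes for G2 and metaphase I, 36 were tested, 1 of them through Het alone, 17 fell (10 without KO replicate 1 or 3) and none rose. Ccna1, the germ-cell cyclin A needed to leave prophase, had 0.424, 0.309 and 0.367 FPKM in KO testes, against 17.9, 8.34 and 5.05 FPKM in Het testes (-3.48 log2, SE 0.416, adjusted p = 0.00434). Aurkc, a meiotic Aurora kinase gene, averaged 1.35 FPKM in KO and 5.41 FPKM in Het testes. Of its 50-base words 54.8% occur in other genes. Hspa2, a spermatocyte chaperone gene used here as a marker, had 80.2, 97.6 and 93.4 FPKM in KO testes, against 328.7, 260.2 and 201.9 FPKM in Het testes. Its fall (-1.51 log2) stood beside Sycp1 (-0.29 log2, adjusted p = 0.0808) and Dazl (0.04 log2, adjusted p = 0.773), germ-cell genes that start earlier and did not pass. The KO libraries of Sycp1 were all below its Het libraries, while Dazl overlapped between the groups. Ddx4, which is expressed from early germ cells on, fell, with 85.9, 87.4 and 81.2 FPKM in KO testes, against 169.8, 138.8 and 132.0 FPKM in Het testes (-0.78 log2, adjusted p = 0.0049). Tex101 did not pass (-0.22 log2, adjusted p = 0.0547), though its KO libraries were all below its Het libraries. On the Sertoli scale Dazl also passed as lower in KO (-0.215 log2, adjusted p = 0.0407). The early germ-cell markers thus did not move alike.

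Promoters of 4 genes are shown because 3 belong to the deepest fallers of the dynein, acrosome and piRNA lists that the RefSeq promoter table (GRCm38.p6) holds, and the last to the largest rises. Tdrd6, AL607142.1, Ctcfl and Ifi27l2a were not in the table used, so the next gene of each ranking is shown. Each runs 5′ to 3′ on the gene's strand, from 250 bases before the start of transcription to 50 after it. Capitals mark the 6-letter matches, on either strand, to a MYB site (spelled TAACGG with the variants TAACTG as well as CAACGG and also CAACTG), to an RFX half-site (GTTGCC) or to a CRE core (TGACGT). A match is a description and not a bound site. Wdr63 (chr3:146107987-146108286, minus strand) holds 2 MYB matches and 2 overlapping CRE matches, Spata16 (chr3:26637381-26637680, plus strand) 1 MYB match, and Piwil1 (chr5:128735996-128736295, plus strand) 2 MYB matches. Zglp1 (chr9:21067044-21067343, minus strand) holds none.
Wdr63: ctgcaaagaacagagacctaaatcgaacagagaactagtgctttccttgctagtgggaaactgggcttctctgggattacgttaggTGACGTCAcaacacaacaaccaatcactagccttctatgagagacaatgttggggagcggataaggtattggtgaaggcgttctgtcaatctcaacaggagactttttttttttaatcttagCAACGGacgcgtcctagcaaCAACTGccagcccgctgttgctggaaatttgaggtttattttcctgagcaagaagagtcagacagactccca
Spata16: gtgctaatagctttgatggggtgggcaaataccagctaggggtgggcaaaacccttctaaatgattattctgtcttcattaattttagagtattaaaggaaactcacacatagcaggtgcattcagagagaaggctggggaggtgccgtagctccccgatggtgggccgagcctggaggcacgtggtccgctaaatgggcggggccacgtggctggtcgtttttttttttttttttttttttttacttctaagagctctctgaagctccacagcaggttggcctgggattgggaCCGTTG
Piwil1: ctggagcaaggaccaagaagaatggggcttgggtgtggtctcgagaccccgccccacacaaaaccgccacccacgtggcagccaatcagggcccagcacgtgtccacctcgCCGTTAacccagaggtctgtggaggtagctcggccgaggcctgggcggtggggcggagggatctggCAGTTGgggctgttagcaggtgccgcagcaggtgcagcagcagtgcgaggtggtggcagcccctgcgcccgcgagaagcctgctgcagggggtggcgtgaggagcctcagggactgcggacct
Zglp1: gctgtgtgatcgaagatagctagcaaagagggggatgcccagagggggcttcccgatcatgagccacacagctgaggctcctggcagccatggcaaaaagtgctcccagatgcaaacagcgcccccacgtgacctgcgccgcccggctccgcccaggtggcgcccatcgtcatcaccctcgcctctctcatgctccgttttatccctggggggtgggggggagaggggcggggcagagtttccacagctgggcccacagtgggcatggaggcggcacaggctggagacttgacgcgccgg

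Over the genes with a promoter in that table, a MYB match was in 44.3% of 930 genes that fell by at least 1 log2, 35.7% of 2400 that fell, 19.4% of 413 that rose, 23.9% of 8343 without a call and 28.2% of all 27025 promoters. The RFX half-site was in 195 of the 930 deep fallers, 17.7% of all that fell, 10.7% of those that rose, 12.2% of those without a call and 12.7% of all promoters. The CRE core was in 7.31% of the deep fallers, 10.7% of all that fell, 12.8% of those that rose, 11.5% of those without a call and 7.59% of all promoters. Among dynein genes 16 of 25 held a MYB match, among acrosome genes 8 of 14, among piRNA genes 7 of 20 and among X-linked housekeeping genes 11 of 39. These shares are a description, and the base composition of the sets was not compared.

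The rises were small, and few were firm. Of 43 named risers, 26, 8 and 33 passed without Het replicate 1, 2 and 3 in turn, 23, 7 and 7 without KO replicate 1, 2 and 3, and 8 on the Sertoli scale. Of 64 named fallers, 46, 40 and 47 passed without a Het library, 56, 52 and 50 without a KO library, and 64 on the Sertoli scale. Of the 28 genes that rose by at least 1 log2, 22 had merged exons under 200 bases and 4 were protein-coding. Among these was AL607142.1 (1.11 log2), whose 78 exon bases lie wholly inside Hivep3 and cannot be told apart from it. The other 3 were Gzmc, Gm10718 and Loxl4, named after their values were seen, at means of 1.45, 2.595 and 1.59 FPKM in KO and 0.470, 1.02 and 0.510 FPKM in Het testes. Of all 615 risers 516 were protein-coding. The protein-coding genes that gained the most level were Ptma, Gstm2, Cst3, Tuba1a, Gsta4, Tubb5, Ctsl and Gm49369. Ptma, an abundant nuclear protein of dividing cells, had 392.4, 396.9 and 388.6 FPKM in KO testes, against 265.2, 303.7 and 338.2 FPKM in Het testes (0.38 log2, SE 0.092, adjusted p = 0.0298). Gstm2, a glutathione transferase gene, had 205.5, 206.8 and 207.2 FPKM in KO testes, against 147.6, 166.5 and 180.6 FPKM in Het testes (0.33 log2, adjusted p = 0.0318). For both, Het replicate 3 lay nearest to KO. Gm49369 lies within the exons of Ctsd and Ifitm10, and 72.9% of the 50-base words of Tuba1a occur in other genes, so these 2 are uncertain. Of the 8 none kept its call on the Sertoli scale. By fold the largest rises at 5 FPKM or more, beside AL607142.1, were Ctcfl, Ifi27l2a, Zglp1, Rcan3 and Cd59a. Ifi27l2a, an interferon-inducible gene, had 4.88, 7.59 and 7.60 FPKM in KO testes, against 3.87, 3.32 and 3.79 FPKM in Het testes (0.77 log2, adjusted p = 0.0263). Rcan3, a calcineurin regulator gene, had 5.28, 5.78 and 6.33 FPKM in KO testes, against 2.90, 3.49 and 3.87 FPKM in Het testes (0.69 log2, adjusted p = 0.0119). Cd59a, a complement inhibitor gene, averaged 12.0 FPKM in KO and 7.17 FPKM in Het testes, with KO replicate 2 the highest. Of these Rcan3, Zglp1, Ctcfl and AL607142.1 also passed on the Sertoli scale.

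Genes of spermatogonia lay mostly above 0, by amounts close to those of the somatic lists below, whose part in these rises was not tested. Of 19 tested genes of differentiating spermatogonia 5 rose and 1 fell, with a median of 0.30 log2, and of 17 of undifferentiated spermatogonia 3 rose and 1 fell, with a median of 0.20 log2, medians that were 0.06 and 0.02 on the Sertoli scale. Sohlh2, a transcription factor of differentiating spermatogonia, had 30.5, 33.8 and 31.0 FPKM in KO testes, against 16.9, 20.9 and 25.7 FPKM in Het testes (0.60 log2, SE 0.149, adjusted p = 0.0352). Etv5, a factor of spermatogonial self-renewal, averaged 10.1 FPKM in KO and 8.11 FPKM in Het testes, and Lin28a, an RNA-binding protein of progenitors, 8.94 and 6.71 FPKM. The exceptions were large. Dmrtb1, which spermatogonia use to leave mitosis, had 16.9, 21.4 and 19.09 FPKM in KO testes, against 87.5, 59.9 and 43.1 FPKM in Het testes (-1.65 log2, adjusted p = 0.00737). Id4, used as a stem-cell marker, had 10.5, 10.7 and 10.9 FPKM in KO testes, against 20.6, 18.3 and 17.2 FPKM in Het testes (-0.77 log2, adjusted p = 0.00328). Both were also high in isolated spermatocytes: Dmrtb1 averaged 112.0 RPKM and Id4 22.0 RPKM in Het cells at P18. In Het testes at P14 they averaged 17.6 and 10.4 RPKM, in values normalized separately. Which germ cells their falls belong to was not tested. Zbtb16, Gfra1 and Kit, other markers of these cells, overlapped between the groups, and Gfra1 was too low to be tested. Sohlh1, a further marker, averaged 15.85 FPKM in KO and 12.07 FPKM in Het testes. Its KO libraries were all above its Het libraries, but it did not pass (0.39 log2, adjusted p = 0.0719). On the Sertoli scale Sohlh2 alone rose among the differentiating genes and none rose among the undifferentiated, and without Het replicate 2 or KO replicate 2 the differentiating list kept 1 riser.

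Of 15 genes of meiotic entry 3 rose and 4 fell, against 1 and 0 without KO replicate 2 or 3. Beside this count, and those of the retinoic acid and DNA replication genes below, 3.27% of all genes tested rose and 19.0% fell. Among the fallers were Stk31, with means of 38.8 FPKM in KO and 56.3 FPKM in Het testes, and Rbm46, an RNA-binding protein needed in early meiosis, with 31.6 and 42.7 FPKM. Gm4969, which encodes MEIOSIN, the partner of STRA8, had 33.6, 36.7 and 34.8 FPKM in KO testes, against 23.0, 22.7 and 25.0 FPKM in Het testes (0.56 log2, SE 0.065, adjusted p = 0.00393). Zglp1, a GATA-like factor gene, had 4.61, 5.94 and 4.61 FPKM in KO testes, against 2.59, 2.44 and 3.45 FPKM in Het testes (0.74 log2, adjusted p = 0.0199). Its exons overlap Gm49373 over 92.2% of their length, so the pair is uncertain. Ctcfl, the germ-cell paralog of the insulator protein CTCF, had 5.98, 6.82 and 7.03 FPKM in KO testes, against 3.70, 3.60 and 3.58 FPKM in Het testes (0.78 log2, SE 0.088, adjusted p = 0.00383). Ctcfl, Gm4969 and Zcwpw1 were the 3 of 43 named risers that passed under every alternative, the Sertoli scale and each left-out library included. They were singled out after their values were seen. Of the retinoic acid genes 17 were tested, 3 rose and 2 fell, and on the Sertoli scale or without Het replicate 2 none rose. Cyp26a1, which degrades retinoic acid, averaged 3.85 FPKM in KO and 2.48 FPKM in Het testes, while Rdh11 and Aldh1a2, a retinal reductase and a retinoic acid synthesis gene, fell by 1.83 and 0.61 on the log2 scale. Of 40 DNA replication genes 5 rose, among them E2f1 and Mcm2, and 5 fell, among them Gins1 and Chaf1a. None of the 40 rose on the Sertoli scale or without KO replicate 2 or 3.

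X-linked genes lay higher in KO by the scaling used. On the Sertoli scale, which moved the median of all genes to -0.23 log2, the X-linked housekeeping and germ-cell lists lay about level. The X-linked genes as a whole were not summarized on that scale. Of 664 X-linked genes tested 78 rose (11.7%) and 5 fell (0.8%), with a median of 0.25 log2, while of 17809 autosomal genes 528 rose (3.0%) and 3506 fell (19.7%), with a median of -0.01 log2. Of 43 tested X-linked housekeeping genes 15 rose, none fell and all 43 were above 0, and 38 did not overlap between the groups (KO above Het in 17.6% of all genes tested). Ndufb11, a respiratory complex I gene, had 39.9, 37.4 and 38.02 FPKM in KO testes, against 27.0, 30.5 and 30.4 FPKM in Het testes (0.39 log2, SE 0.068, adjusted p = 0.0110). Prps2, a nucleotide synthesis gene, averaged 3.76 FPKM in KO and 2.59 FPKM in Het testes (0.46 log2). Of 19 tested X-linked germ-cell genes 5 rose and none fell. Tex13b had 21.7, 23.2 and 21.8 FPKM in KO testes, against 14.6, 16.8 and 17.2 FPKM in Het testes (0.45 log2, adjusted p = 0.0105). On the Sertoli scale none of the 43 and none of the 19 rose, with medians of 0.03 and 0.04 log2, and with the values as deposited 37 and 12 did. The count of 15 was 2 without KO replicate 2 or 3, and 3 without Het replicate 2. Of 8 tested Y-linked genes Uba1y alone rose (0.31 log2). The somatic lists, which follow, had medians of the same size. In isolated spermatocytes the X-linked housekeeping and germ-cell lists had medians of 0.33 and 0.38 log2. The Sertoli, Leydig and myoid lists had -0.48, -0.07 and -0.19 log2 there, and the endothelial and macrophage lists 0.32 and 0.52 log2. In these testis libraries a larger share of somatic or early germ cells and a change on the X cannot be told apart. The cause was not tested.

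**Figure D2:**
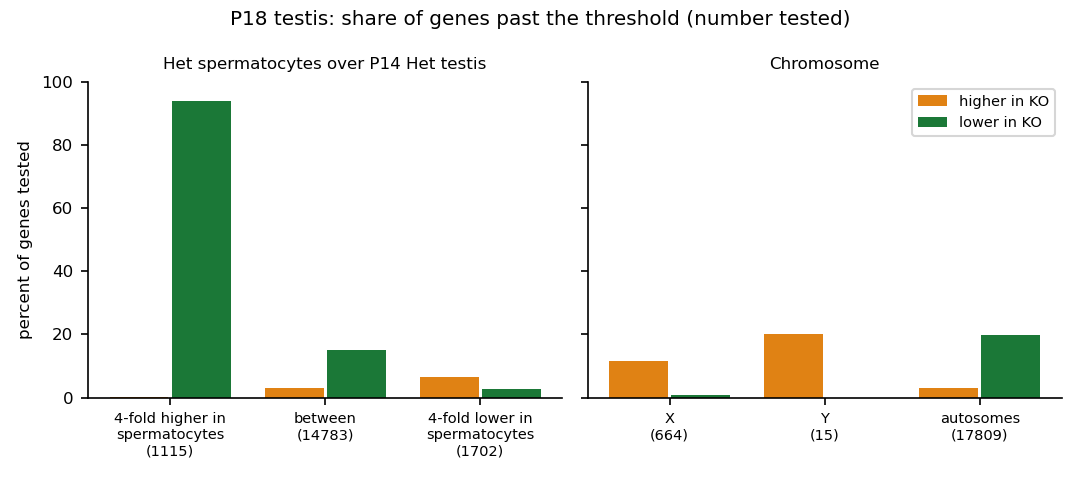
Bars are the percent of tested genes that rose (orange) or fell (green) in KO P18 testis, by how much higher a gene is in Het spermatocytes at P18 than in Het testes at P14 (left) and by chromosome (right). Genes 4-fold higher in spermatocytes fell in 93.9% of cases, and X-linked genes rose in 11.7% and fell in 0.8%.

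The Sertoli, Leydig, myoid and endothelial lists lay in a narrow band above 0, with few calls, and at about 0 on the Sertoli scale, which sets the Sertoli list itself level by construction. Macrophage and erythroid genes, given below, had medians of 0.21 and 0.45 log2 on that scale. Of 30 tested Sertoli genes 2 rose and none fell, with a median of 0.25 log2 and 29 above 0. Of the 30, 22 did not overlap between the groups (KO above Het in 17.6% of all genes tested). Sox9, which fixes Sertoli identity, had 43.6, 46.1 and 42.8 FPKM in KO testes, against 31.6, 36.7 and 42.1 FPKM in Het testes (0.27 log2, SE 0.107, adjusted p = 0.122). The groups did not overlap, but Het replicate 3 was close to KO. Ctsl and Kitl, a Sertoli protease gene and the gene of the KIT ligand, rose by 0.34 and 0.25 log2. Summed over the list, Sertoli genes gave 3749, 3709 and 3747 FPKM in KO testes, against 2792, 3121 and 3488 FPKM in Het testes. The order of the Het libraries was the reverse of that for dynein genes, whose sum was 96.9, 94.9 and 95.0 FPKM in KO testes, against 711.5, 476.3 and 323.2 FPKM in Het testes. With the values as deposited 20 Sertoli genes rose, by the median of ratios 12, without Het replicate 3 16, and without Het replicate 2 or any 1 KO library none.

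**Figure D3:**
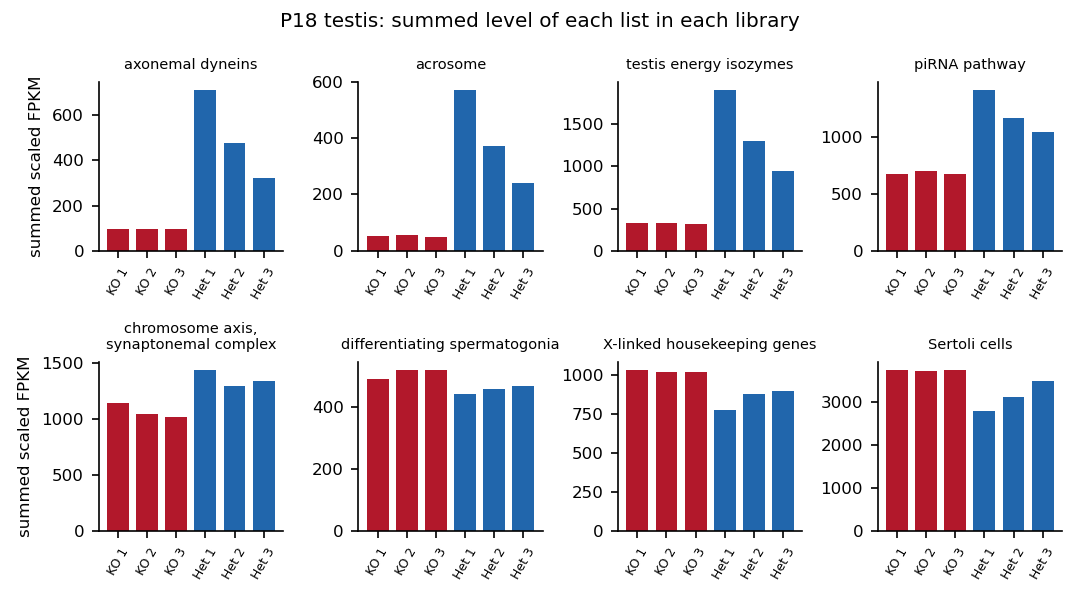
Bars are the summed scaled FPKM of the listed genes in each P18 testis library, KO in red and Het in blue. The dynein, acrosome, energy and piRNA sums are low and level in KO and differ widely among the Het libraries, while X-linked and Sertoli sums are level in KO and lower in Het, nearest in Het 3.

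Of 20 tested Leydig and steroid genes 2 rose and none fell (median 0.27 log2, and 0.03 on the Sertoli scale). None rose on the Sertoli scale, without Het replicate 1 or 2, or without any 1 KO library. The core Leydig markers Cyp11a1 (-0.08 log2) and Star (-0.02 log2) overlapped between the groups and did not pass. Fdxr, which feeds electrons to steroid enzymes, averaged 24.6 ± 1.89 FPKM in KO and 18.5 ± 2.26 FPKM in Het testes (SD, n = 3 each; 0.40 log2, adjusted p = 0.0351), and Hsd3b1, a steroid dehydrogenase gene, rose by 0.33 log2. Cyp17a1, also of Leydig cells, had 22.7, 7.62 and 22.5 FPKM in KO testes, against 10.6, 9.06 and 20.5 FPKM in Het testes. Its libraries overlapped and varied within each group by more than the group means differed. Of 23 peritubular myoid and 8 endothelial genes none rose or fell (medians 0.21 and 0.25 log2). The summed myoid list overlapped, with 645.4, 843.7 and 973.2 FPKM in KO testes, against 705.2, 783.4 and 606.1 FPKM in Het testes. At an unadjusted p under 0.05, 2338 of all genes tested lay higher and 4813 lower. Macrophage genes gave 5 risers and 1 faller of 16, with a median of 0.44 log2. Cd68, a macrophage lysosome gene, had 3.88, 5.68 and 6.08 FPKM in KO testes, against 3.29, 2.83 and 3.24 FPKM in Het testes (0.64 log2, SE 0.170, adjusted p = 0.0411), and Cx3cr1, a chemokine receptor gene, averaged 3.08 FPKM in KO and 1.82 FPKM in Het testes. The summed list gave 109.3, 116.9 and 120.4 FPKM in KO testes, against 89.5, 98.0 and 92.8 FPKM in Het testes. On the Sertoli scale 3 of the list rose. Without KO replicate 2 the list kept 1 riser, and without Het replicate 2 or KO replicate 3 it kept 2.

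The faller among macrophage genes was Fcgr3, an Fc receptor gene, with 2.85, 3.04 and 2.76 FPKM in KO testes, against 16.5, 12.1 and 7.86 FPKM in Het testes (-1.84 log2, SE 0.247, adjusted p = 0.00541). It fell further in isolated spermatocytes (-3.86 log2), where it averaged 0.526 RPKM in KO and 14.8 RPKM in Het cells. Erythroid genes had a median of 0.67 log2 but no call among 5. That median was 0.27, 0.39 and 0.47 log2 without KO replicate 1, Het replicate 1 and Het replicate 2 in turn, and 1.06 and 1.09 log2 without Het replicate 3 and KO replicate 3. Hba-a1 ran from 14.2 to 34.1 FPKM in KO and from 8.52 to 21.2 FPKM in Het testes. Of 29 tested p53 targets and apoptosis genes 3 rose and 2 fell, and on the Sertoli scale or without Het replicate 2, KO replicate 2 or 3 none rose. Ccng1, a p53 target, averaged 11.6 FPKM in KO and 8.76 FPKM in Het testes, and Casp8, an initiator caspase gene, 6.52 FPKM in KO and 5.12 FPKM in Het testes. Bcl2l1, a survival gene, averaged 14.6 FPKM in KO and 21.8 FPKM in Het testes, while Mdm2, another p53 target, averaged 20.5 FPKM in KO and 29.3 FPKM in Het testes. No immediate-early (of 17), interferon-stimulated (of 11) or mitochondrially encoded gene (of 13) rose or fell. Of 59 cytoplasmic ribosomal protein genes Rpl24 alone fell (-0.25 log2), with 47.0% of its exon bases inside Gm28037, and on the Sertoli scale 23 of the 59 fell.

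When genes change during the first wave was set beside the differences, without use of any P18 testis library for the grouping. Of 1115 tested genes at least 4-fold higher in Het spermatocytes at P18 than in Het testes at P14, 1047 (93.9%) fell and 1 rose (Pgm1, a sugar phosphate mutase gene, named after its values were seen), with a median of -1.93 log2 and quartiles of -2.72 and -1.35. Of 14783 genes between the bounds, 2217 fell and 479 (3.2%) rose, with a median of 0.01 log2. Of 1702 genes at least 4-fold lower in spermatocytes, 45 (2.6%) fell and 112 (6.6%) rose, with a median of 0.20 log2. A further 1196 genes had no value at P14. How many of the 1047 were tested only through Het was not counted. The 2 kinds of table were normalized separately by the authors, so the bounds are approximate.

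In isolated spermatocytes most of the testis fallers fell as well, and the axoneme, acrosome and energy lists had lower medians. Of 15903 genes tested there, 4070 (25.6%) fell and 1484 (9.33%) rose in KO. Of the 3432 genes that fell in testis and were tested in spermatocytes, 2839 (82.7%) also fell there and 3 rose. Of the 525 testis risers tested in spermatocytes, 231 (44.0%) also rose there, 2 fell and 292 passed in neither direction. The median of the dynein list was -2.84 log2 in spermatocytes beside -2.07 in testis, and that of the acrosome list -3.10 beside -2.71. Other lists went the other way. The median was -0.89 log2 in spermatocytes beside -1.37 in testis for the fibrous sheath list, and -0.56 beside -0.72 for the piRNA list. It was 0.03 beside -0.30 for the G2 and metaphase I list, and -0.13 beside -0.26 for the chromosome axis list. The genes tested were not the same for every list. The log2 difference in spermatocytes was -5.32 for Ldhc, -5.94 for Spata16, -5.49 for Tdrd6, -4.76 for Wdr63 and -4.45 for Piwil1, each lower than in testis. None of these 5 passed the test of the difference between the materials, given below. Sertoli genes had a median of -0.48 log2 in spermatocytes, with 1 faller and no riser of 24, beside 0.25 in testis. Differentiating spermatogonia genes had a median of 0.47 log2 in spermatocytes, with 12 risers of 19, beside 0.30 in testis. Of the 112 testis risers that are lowest in spermatocytes relative to P14 testis, 4 rose in spermatocytes as well, beside 59 of all 1702 genes of that bin. Of the 479 between the bounds 222 did, beside 1334 of all 14783. Of the 78 X-linked risers 24 rose in spermatocytes, beside 77 of all 664 X-linked genes tested.

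The test of the difference between the materials found 114 genes (0.571% of 19962) with a KO minus Het difference more positive in testis and 11 (0.0551%) with one more negative. None of 33 dynein genes and none of 30 Sertoli genes passed it, with list medians of 0.70 and 0.66 log2. Neither list was therefore shown to differ between testis and spermatocytes, gene by gene. The count of 114 ran from 15 (without testis Het replicate 2) to 214 (without testis Het replicate 1) with 1 library left out, and that of 11 from 0 (without testis Het replicate 2) to 26 (without spermatocyte Het replicate 3).

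**Figure D4:**
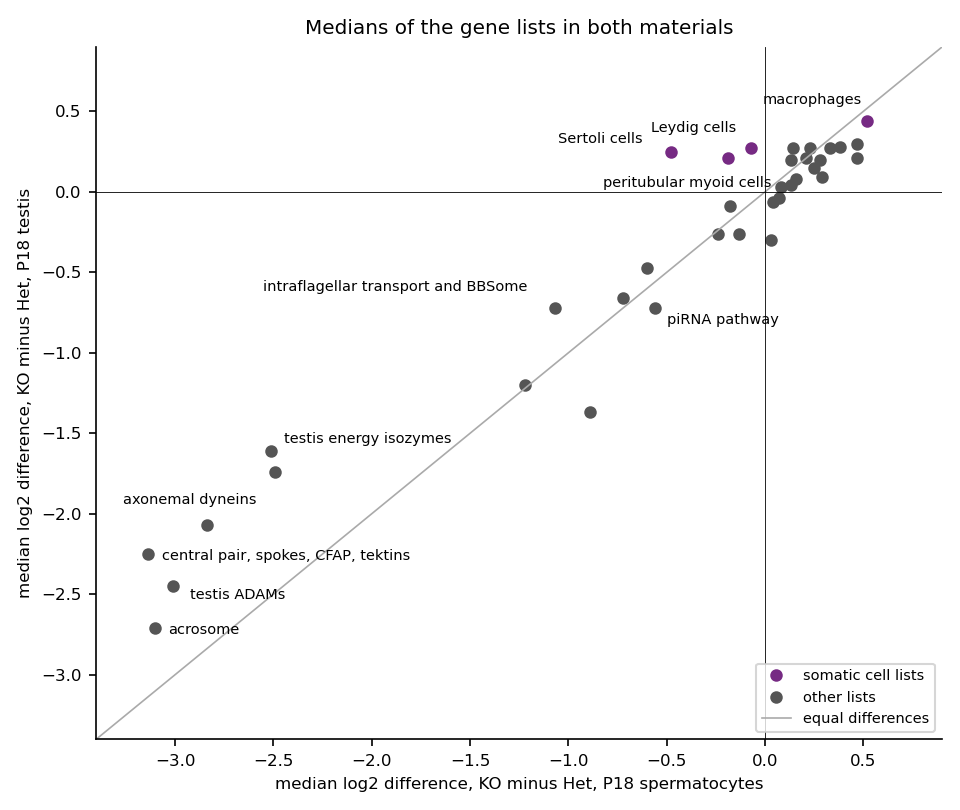
Each point is a gene list at its median log2 difference, KO minus Het, in P18 spermatocytes (x axis) and P18 testis (y axis), and the grey line marks equal differences. Axoneme, IFT, acrosome and energy lists lie above the line, with smaller falls in testis. The fibrous sheath, piRNA, chromosome axis and G2 lists lie below it. The Sertoli, Leydig and myoid lists are above 0 in testis as scaled here (near 0 on the Sertoli scale) and below 0 in spermatocytes.

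At P14, 31 of 17701 genes (0.175%) fell and 2 (0.0113%) rose. With 1 P14 library left out the count of fallers was 0 (without Het replicate 1 or 3, or KO replicate 1 or 2), 14 (without Het replicate 2) or 83 (without KO replicate 3). Of the P18 fallers 2644 were tested at P14 and 30 fell there. Crisp2 fell by 2.57 on the log2 scale at P14, Piwil1 by 2.33 and Cetn1 by 1.98. Piwil1 averaged 2.32 RPKM in KO and 13.5 RPKM in Het testes at P14. Ldhc, the gene with the largest loss of level at P18, averaged 3.37 RPKM in KO and 24.5 RPKM in Het testes at P14 and did not pass (adjusted p = 0.0686). Of 573 P18 risers tested at P14 none was called there in either direction.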

How the data were processed

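Poly(A) RNA of whole testis at P18 was measured in 3 KO and 3 Het libraries. Per the file headers the authors deposited FPKM values per gene for these libraries, and RPKM values for P18 spermatocytes and P14 testis. The submitters' processing notes give, with no roles, the build GRCm38 and the tools STAR 2.6.1a, edgeR 3.28.1, CASAVA 1.9 and featureCounts. Strand is not given in the sources used here, so overlapping and antisense genes are reported as uncertain.

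Every number here was computed from those values. Rows of shared symbols (217) were left out, and 53576 of 55184 genes matched GENCODE M21. Reads were read back as value times exon length, in steps set by the 1000 lowest values of a library, and 98.46% of genes with a mean of at least 1 came out whole. Weighted trimmed means of these reads (30% of log ratios, 5% of levels) scaled the FPKM, with factors of 0.9264 to 1.061. Genes that reached 1 in 3 or more libraries entered limma 3.58.1 in R 4.3.3 on log2(value + 0.5), fitted with a trended, robust variance and Benjamini-Hochberg adjustment over all genes tested, in a fit of the 6 libraries alone. A fold on this scale understates the change of low genes. Spermatocytes and P14 testis had fits of their own, and a 12-library fit tested the difference between testis and spermatocytes. The steps were run on simulated data in which a small set of genes was changed by known factors in both directions. Those data had neither the wide Het spread nor the many falls seen here, so they could not test the scaling under such a shift. Named genes were Zfp541, Kctd19, the 8 largest gains and losses of level, the 6 largest log2 rises and falls and up to 2 each way per list, all past the threshold. The members, lists and tests were chosen with earlier results of these data known. Replicate numbers were not used to pair the libraries in the main fit. The alternatives were other scalings, pseudocounts and filters, a replicate block, voom, other stage bounds and each library left out. Python 3.11.15, numpy 2.4.6, pandas 2.3.3, scipy 1.17.1 and matplotlib 3.10.9 were used.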

Additional observations from a re-analysis of the deposited data

Results flagged for a closer look

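For 5 named or listed genes the KO minus Het difference itself differed between P18 testis and P18 spermatocytes in limma's 12-library test, with Benjamini-Hochberg adjustment over all genes tested. Fcgr3, an Fc receptor gene, fell in both, by 1.84 log2 in testis and 3.86 in spermatocytes, a difference of 2.021 (SE 0.373, adjusted p = 0.0448). Macroh2a1, a histone variant gene, averaged 19.7 FPKM in KO and 25.0 FPKM in Het testes, and 9.03 and 27.5 RPKM in KO and Het spermatocytes, a difference of 1.187 (adjusted p = 0.0478). Sox6, a germ-cell transcription factor gene, averaged 2.29 FPKM in KO and 3.95 FPKM in Het testes, and 0.677 and 5.81 RPKM in KO and Het spermatocytes, a difference of 1.706 (adjusted p = 0.0376). Tpi1, a glycolysis gene, averaged 15.4 FPKM in KO and 19.9 FPKM in Het testes without passing the test, and 4.81 and 18.2 RPKM in KO and Het spermatocytes, a difference of 1.461 (adjusted p = 0.0376). Ifi27, an interferon-stimulated gene, averaged 30.3 FPKM in KO and 26.0 FPKM in Het testes (0.21 log2, not past the threshold) and fell by 0.57 log2 in spermatocytes, a difference of 0.786 (adjusted p = 0.0278). The testis and spermatocyte values were normalized separately by the authors.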

How the results depend on the processing

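The direction of the axoneme, acrosome, energy and piRNA lists held under every scaling and every left-out library. Of 64 named fallers, 44 passed under every alternative in which they were tested, against 3 of 43 named risers. An alternative in which a gene was not tested was passed over in these 2 counts. Without Het replicate 2, 40 of the 64 were tested and passed. No named gene that passed turned its sign. The count of risers in P18 testis (615) was 2473 as deposited, 1216 by the median of ratios, 1925 by voom, 236 without a filter and 56 on the Sertoli scale, and that of fallers (3569) was 5718 on the Sertoli scale. With the replicate block 353 rose and 2654 fell. Same-numbered libraries deviated from their group means with correlations of 0.03, -0.01 and -0.03 over all genes tested. Such a value over all genes cannot tell whether some genes follow the replicate number. The Leydig markers Cyp11a1, Cyp17a1 and Star were lowest in replicate 2 of both groups, while Hsd3b1 was not. With 1 library left out, 80 to 1035 rose and 1405 to 3204 fell. In spermatocytes 3986 rose as deposited and 757 without a filter, and 475 to 1821 rose and 2325 to 3381 fell with 1 library left out.

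At P14 the risers were 0 with at least 5 in 3 libraries, 1 with a pseudocount of 0.1, 4 with a pseudocount of 1 and 0 with the block, and the fallers 5 with at least 5 in 3 libraries, 6 without a filter, 16 with a pseudocount of 0.1 and 3 with the block. With 1 library left out 0 to 3 rose and 0 to 83 fell. Genes more positive in testis than in spermatocytes numbered 232 as deposited, 183 with at least 5 in 3 libraries, 23 by the median of ratios, 36 without a filter, 259 and 59 with pseudocounts of 0.1 and 1, 58 with the block and 15 to 214 with 1 library left out. Those more negative numbered 58 as deposited, 1 by the median of ratios, 17 and 7 with pseudocounts of 0.1 and 1, 1 with the block and 0 to 26 with 1 library left out. Markers that did not pass turned sign on the Sertoli scale: Dazl to -0.215 (where it passed, adjusted p = 0.0407), Zbtb16 to -0.038, Amh to -0.045, Wt1 to -0.028, Clu to -0.039, Acta2 to -0.013, Myh11 to -0.028, Cnn1 to -0.074 and Csf1r to -0.004 log2. Cyp11a1 was 0.052 as deposited, and between -0.223 (without KO replicate 3) and 0.233 (without KO replicate 2) with 1 library left out. Star was 0.114 as deposited, 0.011 by the median of ratios, and between -0.307 (without Het replicate 2) and 0.341 (without Het replicate 1) with 1 library left out. With stage bounds of 2-fold, 67.3% of the genes higher in spermatocytes fell and 0.7% rose, 9.2% of those between fell, and 1.9% of those lower fell. Leaving out a library or changing the filter changes which genes are tested, and beyond that the cause was not tested. At 12.81M to 16.95M reads a library, 1 read on 1 kb is worth 0.059 to 0.0781 FPKM, so KO levels below about 0.3 rest on few reads.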
